A study of Rattus norvegicus with 24 samples.

Results

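Xpnpep2 encodes membrane aminopeptidase P, and it is 1 of the 32883 genes counted in the lungs of rats treated with monocrotaline (MCT). Its row was found by its Ensembl identifier, ENSRNOG00000004009. The gene was chosen with its own counts in MCT and PBS rats and their change from week to week in view, so its levels and fold changes are given as a description, with standard deviations (SD) or standard errors (SE) and without a test. The lungs came from 24 male Sprague-Dawley rats with no engineered allele named in the labels. MCT, a plant alkaloid that injures the pulmonary endothelium and raises pulmonary artery pressure, was given at 50 mg per kg to 4 rats for each of Weeks 1, 2 and 3 (days 7, 14 and 21), and 4 PBS rats were taken at each of the same times. Every week thus had its own PBS rats, and each library was the lung of 1 rat.

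Aminopeptidase P removes the first residue of a peptide when the second is proline. Bradykinin begins in this way and loses its activity when the residue is removed, while angiotensin-converting enzyme (ACE) inactivates bradykinin from the other end. The membrane form is held at the cell surface by a glycosylphosphatidylinositol (GPI) anchor, and in the rat lung the protein is known from the caveolae of endothelial cells, the small invaginations of their plasma membrane. In bulk lung, fewer cells of a type and less RNA per cell cannot be told apart.

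In the Rnor_6.0 coordinates of the count table, Xpnpep2 lies at chrX:134940615-134969996 on the plus strand, with 22 exons that together cover 3480 bases of a 29382-base gene, and no other gene of the table overlaps it. RefSeq's table on the GRCr8 build places a transcript start at position 132168399 of the X chromosome, 2703 bases inside the gene's own first base. The 250 bases in front of that start (chrX:132168149-132168398 in GRCr8, plus strand) are shown. They lie inside the gene and not before its first base. In capitals on either strand is the core GGAA of ETS factors, a family with many endothelial members (read as TTCC on the minus strand).
Xpnpep2: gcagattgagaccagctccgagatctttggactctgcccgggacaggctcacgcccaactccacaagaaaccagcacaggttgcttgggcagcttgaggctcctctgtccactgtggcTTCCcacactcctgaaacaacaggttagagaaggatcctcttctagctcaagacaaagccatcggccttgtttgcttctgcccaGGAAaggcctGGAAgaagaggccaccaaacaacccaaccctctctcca
The 3 matches start 132, 48 and 38 bases before the transcript start. At least 1 such core is found in 93.2% of the 33469 RefSeq promoters of the same length and as many as 3 in 55.5%, so the window is ordinary in this respect. The FOX core TGTTT also matched at 3 places (47.0% of promoters hold at least 1), on either strand, with no overlap with the ETS cores. The data hold no measurement on this window.

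The libraries held 19804731 to 32835200 counts, and Xpnpep2 itself 1739 to 7972, so that counting error alone was 1.12% to 2.4% of its value. PBS replicates 1 and 3 of Week 1 stood apart, with 19804731 and 20509197 counts and 14706 and 12491 genes at 10 or more counts, against at least 28357609 counts and 15614 to 16428 genes in the other 22 libraries. In the same PBS group the summed level of 6 erythroid markers was 4517 to 11690 CPM (counts relative to library size, scaled by TMM, a correction for library composition), and at most 2417 in any other library. The part of these in the Week 1 values was not tested, and the Week 1 fold change of Xpnpep2, its changes between weeks and its ratio to pan-endothelial markers are also given without that pair.

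Xpnpep2 was higher with MCT in Week 1, lower in Week 2 and much lower in Week 3. In Week 1 the 4 PBS rats had 142.4, 156.8, 169 and 181.7 CPM (replicates 1 to 4), and the 4 MCT rats 199.1, 265.3, 195.3 and 205. All 4 MCT rats were above all 4 PBS rats, and MCT replicate 2 was well above the other 3. In Week 2 the PBS rats had 193.3, 194.6, 183.4 and 204.2 CPM and the MCT rats 119.3, 126.9, 133.6 and 153.2, all below the lowest PBS rat. In Week 3 the PBS rats had 188.6, 180.2, 179.5 and 212.4 CPM and the MCT rats 57.86, 62.99, 67.58 and 67.61, again without overlap. The groups also kept apart in each week when CPM was taken from the total count or scaled by RLE (DESeq2's size factors).

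**Figure D1:**
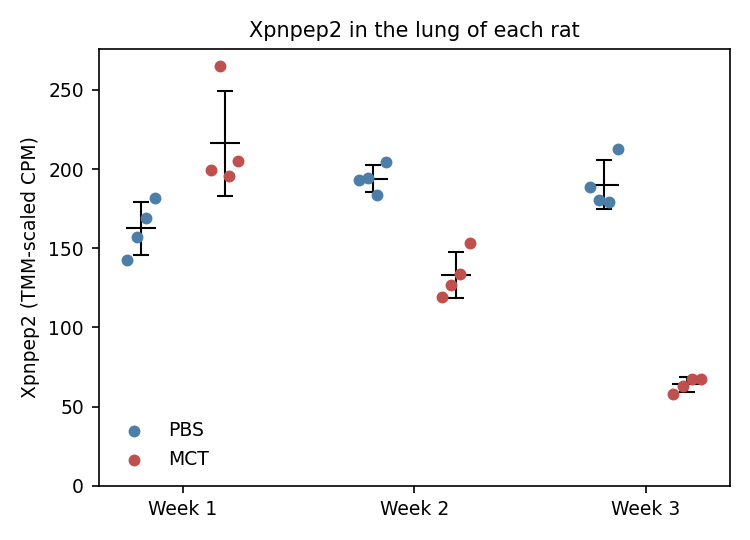
Xpnpep2 in the lung of each rat, in TMM-scaled CPM, by week; each point is 1 rat (4 per group, PBS blue, MCT red), with the group mean and SD as a black bar. The MCT rats lie between 195.3 and 265.3 in Week 1, between 119.3 and 153.2 in Week 2 and between 57.86 and 67.61 in Week 3, above, below and below the PBS rats of the same week.

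The PBS means were 162.5 ± 16.8, 193.9 ± 8.5 and 190.2 ± 15.4 CPM in Weeks 1, 2 and 3 (SD, n = 4), and the MCT means 216.2 ± 33.0, 133.3 ± 14.5 and 64.0 ± 4.64. Ordered from low to high, the groups were MCT Week 3, MCT Week 2, PBS Week 1, PBS Week 3, PBS Week 2 and MCT Week 1. Only the first step of this order, between MCT Week 3 and MCT Week 2, parted groups whose ranges did not touch. Per length, Xpnpep2 stood at 46.7, 55.7 and 54.7 RPKM (CPM divided by the exon length in kilobases) in the PBS lungs, where 1994, 1354 and 1415 of 15377 genes were higher. It stood at 62.1, 38.3 and 18.4 RPKM in the MCT lungs, with 1335, 2206 and 4844 genes above it, and the median gene was at 9.95 to 10.3 RPKM in every group.

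As a fold change, Xpnpep2 was 1.33-fold higher with MCT in Week 1 (log2 fold change 0.41, SE 0.20), 1.46-fold lower in Week 2 (-0.54, SE 0.088) and 3.0-fold lower in Week 3 (-1.59, SE 0.11). The median over all genes tested was -0.043, -0.0016 and 0.0073 in the same weeks. Of the genes tested, 82.3% had a lower log2 fold change than Xpnpep2 in Week 1, 8.36% in Week 2 and 2.09% in Week 3. The Week 2 value was inside the 1.5-fold threshold used for calling genes (0.585 on the log2 scale), and past it, at -0.62, without MCT replicate 4. For Week 1, it was 0.35 without PBS replicates 1 and 3, and 0.28 without MCT replicate 2, the lowest of all settings tried.

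The fall of the MCT effect was of about the same size in each step. Between Weeks 1 and 2 the MCT effect changed by -0.95 on the log2 scale (SE 0.17), between Weeks 2 and 3 by -1.03 (SE 0.17), and from Week 1 to Week 3 by -1.98 (SE 0.17). The level in MCT lungs itself changed by -0.70 (SE 0.12) and then by -1.06 (SE 0.12). The level in PBS lungs changed by 0.26 (SE 0.12) and then by -0.028 (SE 0.12), so part of the first step lay in the lower PBS level of Week 1. Without PBS replicates 1 and 3 of Week 1 the 3 changes were -0.93, -1.02 and -1.95.

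Few genes took this course when the groups had to be fully apart in every week. The MCT rats lay all above the PBS rats in 4.99% of genes tested in Week 1, and all below them in 1.76%. In Week 2 these shares were 12% above and 10.3% below, and in Week 3 16.2% above and 15.4% below. Of 15377 genes tested in every week, 673 had all MCT rats below all PBS rats in both Week 2 and Week 3. In Week 1, 603 of these had overlapping groups, 66 already had all MCT rats below, and 4 had all MCT rats above (0.026% of the 15377). The opposite course, below in Week 1 and above in both later weeks, was taken by 0 genes. The PBS libraries of Week 1 differed most among themselves (chi-square of 152.5 to 794.3 per degree of freedom between pairs, at most 92.68 in other groups). A wide PBS range makes overlap more likely, so these Week 1 counts are limited. A gene can also share the signs with overlapping groups in Week 1, as Podxl, described below, did (log2 fold changes 0.15, -0.34 and -0.89). Xpnpep2 is 1 of the 4, which is what its rule selects. Of the others, singled out here after their values were seen, Mal is the 1 with a symbol. It encodes a membrane protein of lipid rafts that acts in apical sorting, and its PBS means of 36.8 ± 13.8, 41.5 ± 7.0 and 35.2 ± 10.8 CPM in the 3 weeks stood beside MCT means of 60.5 ± 4.93, 23.1 ± 2.23 and 17.7 ± 3.17. The remaining 2 have low levels, at most 12.2 CPM in any group mean.

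The next comparison places Xpnpep2 among the genes that make or degrade kinins and related peptides. Gene names were available for 3275 identifiers only, mostly genes that the study called on these same samples, so the directions of named genes are not independent evidence, and a count of called members is read against other named genes. Genes were called with edgeR's quasi-likelihood test (Benjamini-Hochberg adjusted p under 0.05 over all genes tested, fold change over 1.5). In Week 1, 0.0703% of genes were called higher and 0.0192% lower (11 and 3 genes). Both counts were 0 when PBS replicate 2, PBS replicate 4 or any single MCT rat of that week was left out. They were 19 and 7 with PBS replicate 1 left out, and 130 and 34 with PBS replicate 3 left out. In Week 2 these were 6.0% and 3.43%, and in Week 3 11.1% and 11%. Among genes with a symbol, 0.336% were called higher and 0.0611% lower in Week 1, 18.4% were called higher and 13.0% lower in Week 2, and 19.3% and 40.6% in Week 3. The nearest relatives of Xpnpep2 (Xpnpep1, Xpnpep3, Pepd) and the bradykinin receptors have no symbol in the names used here and were not analysed here.

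Of 5 named kinin-cleaving peptidases (of 17 listed), none was called in Week 1. Ace, Dpp4 and Cpn1 were lower and Prcp higher in Week 2, and Ace, Dpp4 and Mme were lower and Prcp higher in Week 3. The median log2 fold change of the 5 was -0.64, -0.64 and -0.85 in Weeks 1, 2 and 3. Per length in PBS lungs of Week 3, Ace stood at 238 RPKM, Dpp4 at 66.2, Xpnpep2 at 54.7, Mme at 51.9, Prcp at 22.8 and Cpn1 at 11.9.

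Ace, the peptidyl-dipeptidase that removes the last residues of bradykinin and makes angiotensin II, was past the 1.5-fold threshold in every week. It was called in Weeks 2 and 3 only. Its level went from 713.2 ± 235 CPM in PBS to 457.5 ± 73.9 in MCT lungs in Week 1 (log2 fold change -0.64, adjusted p = 0.945), with overlapping groups. In Week 2 it fell from 948 ± 57.9 to 384 ± 42.2 CPM (-1.31, SE 0.096, adjusted p = 1.78e-05), and Week 3 brought a similar fall, 895 ± 130 to 342.1 ± 66 (-1.40, SE 0.16, adjusted p = 1.81e-04). The change of the MCT effect from Week 1 to Week 3 was -0.75 for Ace and did not pass the test of the difference (adjusted p = 0.12), and whether Ace and Xpnpep2 differ in timing was not tested.

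Dpp4, which removes a dipeptide ending in proline from the start of peptides, fell in Week 2 from 293.2 ± 24 to 188.7 ± 31.7 CPM (log2 fold change -0.64, adjusted p = 0.00364). In Week 3 there were 321.8 ± 45.4 CPM in PBS and 101.2 ± 25.1 in MCT lungs (-1.69, SE 0.18, adjusted p = 1.12e-04). Without MCT replicate 1 of Week 2 its Week 2 value was -0.55, inside the 1.5-fold threshold. Enpep, the aminopeptidase A that trims angiotensin II, had a similar course, with PBS and MCT means of 122.1 ± 9.63 and 76.2 ± 11.4 CPM in Week 2 (-0.68, adjusted p = 0.00166) and 137.7 ± 22.9 and 43.5 ± 10.6 CPM in Week 3 (-1.68, SE 0.19, adjusted p = 1.58e-04). Both had a negative value in Week 1 (-0.52 and -0.61), where Xpnpep2 had a positive one, and neither passed the test there.

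Mme, the neutral endopeptidase neprilysin, went from 164.4 ± 43.8 to 92.2 ± 30.4 CPM in Week 3 (log2 fold change -0.85, adjusted p = 0.0198), with overlapping groups. The call was lost without PBS replicate 3 (adjusted p = 0.0515) or MCT replicate 2, 3 or 4 of that week (0.0582, 0.0643 and 0.0501). Cpn1, the catalytic subunit of the plasma carboxypeptidase N, fell in Week 2 (-0.65, adjusted p = 0.00408) and was at -0.19 in Week 3 (adjusted p = 0.284). Prcp, a carboxypeptidase that cuts after proline, rose in Week 2 from 54.2 ± 3.06 to 84.6 ± 8.57 CPM (0.64, adjusted p = 7.68e-04). It also rose in Week 3, 53.8 ± 7.25 against 98.5 ± 15.3 (0.86, adjusted p = 0.00139). Its Week 2 value was 0.57 without MCT replicate 1, inside the threshold.

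**Figure D2:**
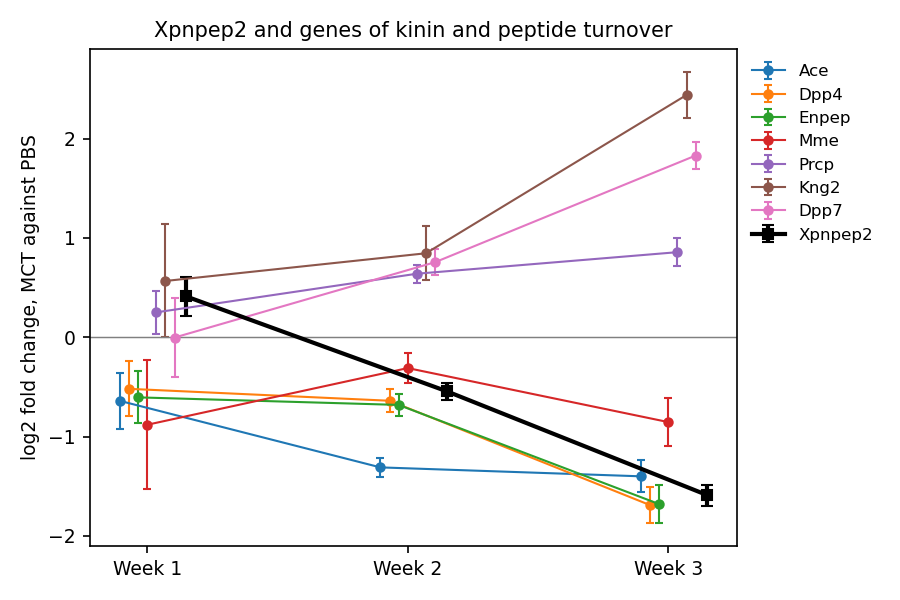
Log2 fold change of MCT against PBS in Weeks 1, 2 and 3 for Xpnpep2 (black squares) and 7 genes of kinin and peptide turnover (circles), with SE as bars and points shifted sideways for legibility. Xpnpep2 goes from 0.41 to -1.59, Ace, Dpp4, Enpep and Mme are below 0 in every week, and Prcp and Kng2 are above 0 in every week.

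On the side of kinin formation, 3 of 9 listed genes had a name. Kng2, a kininogen of the rat, rose from 9.07 ± 2.9 to 49.8 ± 10.6 CPM in Week 3 (log2 fold change 2.44, SE 0.23, adjusted p = 5.41e-05), after 0.57 in Week 1 and 0.85 in Week 2 (adjusted p = 0.0539). The lowest MCT rat of Week 3 had 36.1 CPM and the highest PBS rat 13.4. Serping1, which inhibits plasma kallikrein, rose in Week 2 (0.72, adjusted p = 3.46e-04) and Week 3 (0.67, adjusted p = 0.00686), the latter 0.58 without PBS replicate 3 and so inside the threshold. F11, a coagulation factor related to plasma kallikrein, fell in Weeks 2 and 3 (log2 fold changes -1.56 and -2.26, adjusted p = 7.09e-04 and 1.12e-04), from levels of at most 15.1 CPM.

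Among the other listed peptidases with a name, Dpp7, a prolyl dipeptidase of intracellular vesicles, rose in Week 2 (50.8 ± 6.65 CPM in PBS, 85.9 ± 13.3 in MCT lungs, log2 fold change 0.76, adjusted p = 0.00255) and in Week 3 (34.7 ± 5.8 and 124.9 ± 8.12 CPM, 1.83, SE 0.13, adjusted p = 1.33e-05). Cpa3, a carboxypeptidase of mast cell granules, rose too, with 16.1 ± 6.69 and 269.6 ± 164 CPM in Week 2 (4.06, adjusted p = 2.08e-04) and 10.4 ± 4.59 and 351.2 ± 139 CPM in Week 3 (5.06, adjusted p = 1.96e-05). Tmprss2, a membrane serine protease of epithelium, fell by 0.63 and 0.76 in these weeks (adjusted p = 3.92e-04 and 0.00283). Erap1, which trims peptides in the endoplasmic reticulum, fell by 0.68 in Week 3 (adjusted p = 0.00406), and by 0.55 without MCT replicate 3. Phex was not called in any week.

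In all, 14 genes of these lists had a name besides Xpnpep2. In Week 2, 4 were higher and 6 lower, and in Week 3, 5 were higher and 7 lower. Among all genes with a symbol, 18.4% were called higher and 13.0% lower in Week 2, and 19.3% and 40.6% in Week 3. In 1 fit of all 24 libraries, 2 were higher and 4 lower in Week 2, without the calls of Serping1 (adjusted p = 0.283), Dpp7 (0.194), Dpp4 (0.145) and Enpep (0.0909), and in Week 3 Serping1 (0.138) and Mme (0.265) were not called. The 7 called lower in Week 3, in the direction of Xpnpep2, were Ace, Dpp4, Enpep, Mme, Tmprss2, Erap1 and F11. Phex (-0.73) and Cpn1 (-0.19) also had negative values there, without a call.

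The change of the MCT effect between weeks was tested in a model of all 24 libraries. From Week 1 to Week 3 the effect rose in 1.87% of genes and fell in 2.51% (322 and 432 genes, and 422 and 355 with RLE scaling). These counts rested on single libraries, with 2419 and 2336 genes without PBS replicate 3 of Week 1, 597 and 725 without PBS replicate 4 of that week, and 104 to 178 and 214 to 285 without MCT replicate 2 or 3 of Week 1, PBS replicate 2 or 3 of Week 3 or MCT replicate 2, 3 or 4 of Week 3. Of the 14 genes, Dpp4 (log2 change -1.15, adjusted p = 0.0322) and Enpep (-1.06, adjusted p = 0.0393) fell, and Cpa3 (4.54, adjusted p = 0.00258) and Dpp7 (1.84, adjusted p = 0.00801) rose. The call of Dpp4 was lost without MCT replicate 2 or 3 of Week 1, PBS replicate 1, 2 or 3 of Week 3, or MCT replicate 2, 3 or 4 of Week 3 (adjusted p = 0.0501 to 0.0732). That of Enpep was lost without any 1 of 11 libraries, namely PBS replicate 2 and each MCT rat of Week 1, and replicates 1 to 3 of PBS and 2 to 4 of MCT in Week 3 (adjusted p = 0.0516 to 0.0833). From Week 2 to Week 3 none of the 14 passed, Dpp4 (adjusted p = 0.195), Enpep (0.198) and Dpp7 (0.292) included. Over all 17206 genes of that model, 3 were called higher and 9 lower in this step, so 0 of 14 is not read as a trait of these genes. From Week 1 to Week 2, edgeR called 0 genes, with 900 at an unadjusted p under 0.05 and DESeq2 called 39.

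As aminopeptidase P is a caveolar protein of rat lung, the caveola genes with a name were set beside it. Of 6 (of 14 listed), 0 were called in Week 1, 1 was lower in Week 2 (Plvap) and all 6 were lower in Week 3. The shares called lower among all genes with a symbol were 13.0% in Week 2 and 40.6% in Week 3. Their median log2 fold change was -0.19, -0.38 and -1.21, next to 0.41, -0.54 and -1.59 for Xpnpep2. In Week 3 Cav1, the main coat protein of caveolae, fell from 1875 ± 207 to 783 ± 64.2 CPM (-1.28, SE 0.11, adjusted p = 3.48e-05), and Cav2, its partner, from 1076 ± 291 to 282.7 ± 63 (-1.95, SE 0.21, adjusted p = 1.21e-04).

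The cavins, which shape the coat, fell in Week 3 too, Cavin1 by 0.79 and Cavin2 by 1.15 on the log2 scale (adjusted p = 6.63e-04 and 9.25e-05), as did Ehd4, an ATPase of membrane traffic, by 1.02 (adjusted p = 4.6e-05). Plvap, which forms the diaphragms of caveolae, fell by 1.07 in Week 2 and by 1.51 in Week 3 (adjusted p = 1.90e-04 and 6.89e-05, the former 0.0526 in 1 fit of all 24 libraries). The MCT effect changed from Week 1 to Week 3 in Cav1 (-1.17, adjusted p = 0.0126), Cav2 (-1.67, adjusted p = 0.0202), Cavin2 (-1.04, adjusted p = 0.0273) and Ehd4 (-0.63, adjusted p = 0.0196). Leaving out MCT replicate 2 or 3 of Week 1, PBS replicate 2 or 3 or MCT replicate 2 or 4 of Week 3 ended the call of Cavin2 (adjusted p = 0.0532 to 0.0653). None of the 6 had a positive value in Week 1.

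Genes of other GPI-anchored surface proteins moved in both directions. Of 8 with a name, 4 were higher and 1 lower in Week 2, and 2 were higher and 3 lower in Week 3. Genes with a symbol at large had 18.4% higher and 13.0% lower in Week 2, and 19.3% and 40.6% in Week 3. The median log2 fold change of the 8 was -0.069, 0.28 and -0.077 in Weeks 1, 2 and 3. In Week 2 Prnp, the cellular prion protein (0.78, adjusted p = 3.54e-04), Nt5e, the ectonucleotidase CD73 (0.67, adjusted p = 0.00634), Cdh13, a cadherin without a cytoplasmic tail (0.64, adjusted p = 0.0195), and Gpc3, a glypican (0.60, adjusted p = 0.0242), rose, and Efna1, an ephrin (-0.87, adjusted p = 2.52e-04), fell. Reck, a membrane-anchored inhibitor of metalloproteinases (-1.23, adjusted p = 1.92e-04), Ly6e (-1.15, adjusted p = 0.0019) and Tfpi, the tissue factor pathway inhibitor (-0.95, adjusted p = 0.0013), fell in Week 3. Cdh13 (0.93, adjusted p = 0.00281) and Nt5e (0.59, adjusted p = 0.0196) rose in that week. Several of these calls rested on 1 library. In Week 2 that of Gpc3 was lost when any of PBS replicates 2 to 4 or either of MCT replicates 3 and 4 was left out (adjusted p = 0.0506 to 0.0696), that of Cdh13 without PBS replicate 1 or 3 or MCT replicate 2 (0.048 to 0.0525, at log2 values of 0.54 to 0.59), and that of Nt5e without PBS replicate 4 (0.58, inside the fold threshold). In Week 3 that of Nt5e was lost without PBS replicate 3 or MCT replicate 1 or 4 (0.47 to 0.56). In 1 fit of all 24 libraries the Week 2 calls of Prnp (adjusted p = 0.0779), Nt5e (0.283), Cdh13 (0.284) and Gpc3 (0.365) were lost, as was that of Nt5e in Week 3 (0.152).

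Most markers of endothelial cells were lower with MCT in Week 3. Of 19 named pan-endothelial markers (of 27 listed), 0 were called in Week 1, 11 were lower in Week 2 and 17 in Week 3. Their median log2 fold change was -0.25, -0.81 and -1.27. For comparison, 13.0% of genes with a symbol were called lower in Week 2 and 40.6% in Week 3. The summed level of the 19 spanned 6275 to 12640 CPM in PBS and 6357 to 7818 in MCT lungs of Week 1. The PBS rats of Week 2 had 9159 to 10390 and the MCT rats 4974 to 5831, and in Week 3 the PBS rats had 9140 to 10470 and the MCT rats 3008 to 3355. None of the 19 was at 0 in any group. Cdh5, the cadherin of endothelial junctions, fell from 901.9 ± 107 to 329.8 ± 17.5 CPM in Week 3 (-1.47, adjusted p = 1.4e-05), and Calcrl, the calcitonin receptor-like receptor, from 2036 ± 294 to 187.6 ± 33.6 (-3.46, adjusted p = 1.07e-06). Vwf, von Willebrand factor, fell by 0.67 (adjusted p = 0.00196), and by 0.58 without MCT replicate 2, and was not called in 1 fit of all 24 libraries (adjusted p = 0.157). Not all of the list followed, as 3 members picked after their values were seen show. Nos3, the endothelial nitric oxide synthase (0.99, 0.17 and 0.43 in Weeks 1, 2 and 3), Mmrn2, a protein of the endothelial matrix (0.89, 0.12 and -0.39), and Emcn, the sialomucin endomucin (0.67, 0.48 and -0.65), had positive values in Weeks 1 and 2, and in Week 1 all MCT rats were above all PBS rats in Nos3 and Mmrn2, as in Xpnpep2. Of these values only that of Emcn in Week 3 was called, and leaving out PBS replicate 2 or MCT replicate 3 or 4 brought it inside the fold threshold (-0.55, -0.56 and -0.58), with an adjusted p of 0.114 in 1 fit of all 24 libraries.

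Set against the same markers, Xpnpep2 stood higher in MCT lungs in Weeks 1 and 2, and the groups overlapped in Week 3. Per 1000 CPM of the 19 markers, the PBS rats of Week 1 had 22.7, 19.2, 13.4 and 18.1 CPM of Xpnpep2 and the MCT rats 30.0, 33.9, 29.1 and 32.3. The MCT rats were all above. Without PBS replicates 1 and 3 the PBS values left were 19.2 and 18.1, and leaving rats out cannot undo a full separation. In Week 2 the PBS rats had 18.6, 20.3, 20 and 20.3 and the MCT rats 22.3, 25.5, 24 and 26.3, again all above. In Week 3 the PBS rats had 18.3, 17.6, 17.2 and 23.2 and the MCT rats 17.2, 20.9, 20.2 and 22, with overlapping groups. The group means were 18.4 ± 3.84, 19.8 ± 0.812 and 19.1 ± 2.79 in PBS lungs and 31.3 ± 2.18, 24.5 ± 1.76 and 20.1 ± 2.05 in MCT lungs. MCT replicate 2 of Week 1, the highest rat of all in CPM, had 33.9 on this scale, next to 32.3 in replicate 4.

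**Figure D3:**
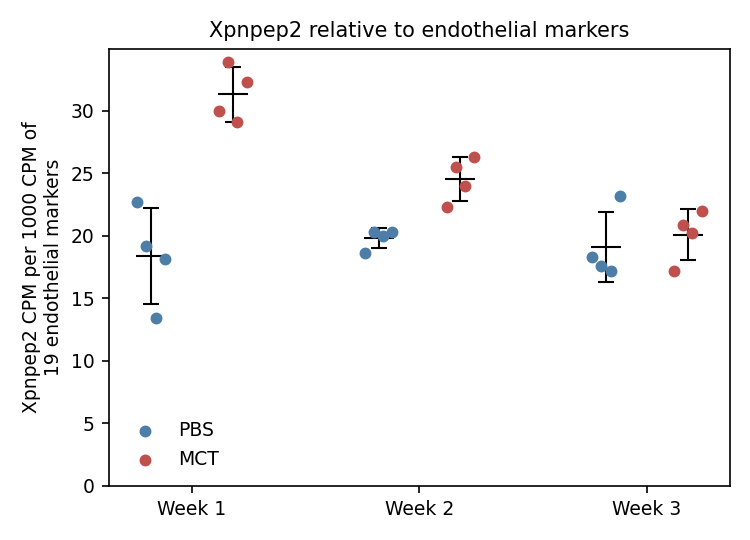
Xpnpep2 CPM per 1000 CPM of 19 summed pan-endothelial markers in each rat, by week (4 rats per group, PBS blue, MCT red, black bars mean and SD). MCT rats lie above PBS rats in Week 1 (29.1 to 33.9 against 13.4 to 22.7) and Week 2 (22.3 to 26.3 against 18.6 to 20.3), and overlap with them in Week 3.

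A sum is weighted by its most abundant genes, so the comparison was repeated with the mean log2 CPM of the 19 markers, in which each counts equally. Relative to that mean, Xpnpep2 was higher with MCT by 0.55 on the log2 scale in Week 1 and by 0.22 in Week 2, and differed by -0.087 in Week 3, where Xpnpep2 itself differed by -1.57 and the markers by -1.48. The SD of this relative level within the groups was 0.0655 to 0.187. The order of the weeks was thus the same on both scales. In Week 1 the markers themselves differed by -0.14 on average.

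The same relation depended on the class of endothelial marker. Per 1000 CPM of 9 capillary markers, Xpnpep2 was at 55.5 ± 5.91 in PBS and 92.2 ± 13.1 in MCT lungs in Week 1, at 61.7 ± 5.71 and 73.1 ± 5.92 in Week 2, and at 76.9 ± 10.1 and 57.7 ± 4.34 in Week 3, where all MCT rats (51.9 to 62.4) were below all PBS rats (65.1 to 89.4). Of the 9, 1 was lower in Week 1, 5 in Week 2 and 7 in Week 3, and 1 was higher in each of the later weeks. Of all genes with a symbol, 0.0611%, 13.0% and 40.6% were called lower in Weeks 1, 2 and 3. In Weeks 2 and 3, 18.4% and 19.3% were called higher. Per 1000 CPM of 8 arterial markers Xpnpep2 was at 154 ± 34.7 and 508 ± 35.1 in Week 1, at 152 ± 2.16 and 368 ± 41.3 in Week 2, and at 166 ± 20.5 and 216 ± 18.8 in Week 3, with MCT above PBS throughout. Against the other classes Xpnpep2 was lower with MCT in the later weeks. Per 1000 CPM of 3 venous markers it was at 1080 ± 62.4 and 999 ± 197 in PBS and MCT lungs in Week 1, at 1380 ± 265 and 734 ± 39.8 in Week 2, and at 1250 ± 328 and 432 ± 38.7 in Week 3. Per 1000 CPM of 5 lymphatic markers it was at 484 ± 88 and 458 ± 125, at 479 ± 45 and 211 ± 23.3, and at 461 ± 66.9 and 89.2 ± 13.2. All MCT rats were below all PBS rats in Weeks 2 and 3 for both classes, and the groups overlapped in Week 1. The markers moved as well. The lymphatic sum had a median of 419.7 CPM in PBS and 701.5 in MCT lungs of Week 3, and 2 of the 3 venous markers were called higher and 1 lower in Week 2. The form with each marker counted equally was made for the pan-endothelial markers only. All these ratios for Week 1 include PBS replicates 1 and 3. These ratios share the Xpnpep2 values with the levels given before and are a description.

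Markers of other cells moved in both directions. Of 8 named macrophage and monocyte markers, 6 were higher in Week 2 and 6 in Week 3, and their summed level rose from 617.3 to 914.3 CPM in PBS to 2077 to 3092 in MCT lungs in Week 3. Of 5 named lymphatic endothelial markers, 4 were higher in both weeks and Lyve1, a hyaluronan receptor, was lower in Week 3 (log2 fold change -1.71, adjusted p = 6.89e-05). The part of these cells in the level of Xpnpep2 was not tested.

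The genes whose log2 CPM followed Xpnpep2 most closely over the 24 libraries were Thbd (Pearson r = 0.929), Podxl (0.927), Mboat2 (0.904), Rgs7 (0.902), Cyp26b1 (0.894), Lyve1 (0.889), Cyp1a1 (0.887), Cytl1 (0.883) and Cdh5 (0.877), with 1 gene without a symbol, ENSRNOG00000004581 (0.887), among the first 10 of 15376. The median r over all genes was -0.0183, and the gene at rank 100 had 0.78. Thbd encodes thrombomodulin, the thrombin receptor of endothelium, and Podxl podocalyxin, a sialomucin of its luminal surface. Spearman's rho of the 10 was 0.615 to 0.823, and 1 of the 10 was among the first 10 by rho. The libraries share their group means, so r largely follows the 6 groups: with every group centred on its mean it was -0.0392 to 0.744, and 1 of the 10 remained among the first 10. Without PBS replicates 1 and 3 of Week 1 it was 0.891 to 0.957, and 4 of the 10 remained.

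**Figure D4:**
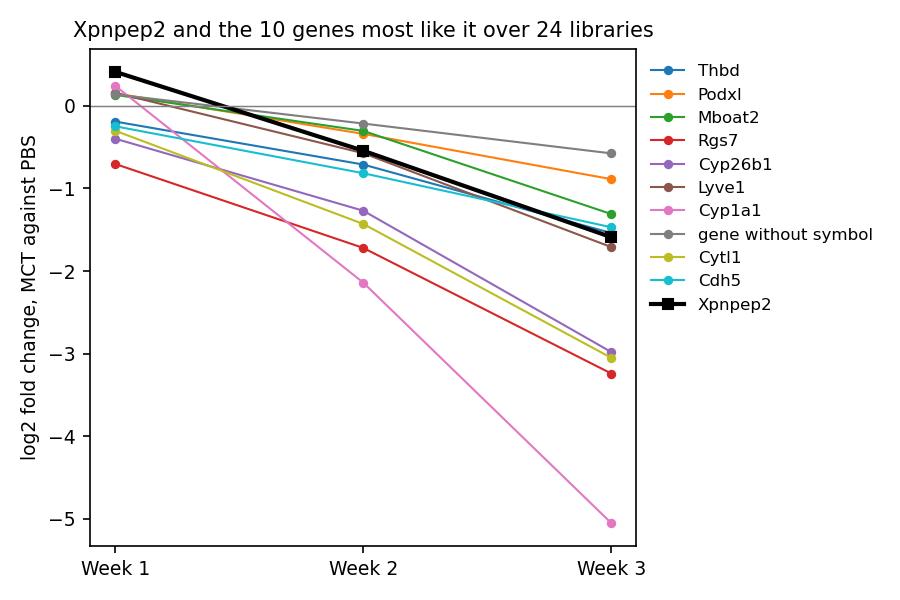
Log2 fold change of MCT against PBS in Weeks 1, 2 and 3 for Xpnpep2 (black squares) and the 10 genes with the highest Pearson r with it over 24 libraries (circles, no error bars drawn). All 10 lines go down from week to week as that of Xpnpep2 does, from -0.70 to 0.24 in Week 1 to -5.05 to -0.58 in Week 3, and Xpnpep2 starts highest, at 0.41.

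The size of the MCT effect varied widely among these 10. The Week 3 log2 fold change was -0.89 for Podxl, -1.31 for Mboat2, -1.54 for Thbd, -1.71 for Lyve1, -3.05 for Cytl1, -3.24 for Rgs7 and -5.05 for Cyp1a1, which encodes a xenobiotic-metabolising cytochrome P450. In Week 1 they lay between -0.70 and 0.24. Podxl, the nearest without the pair of shallow PBS libraries (r = 0.957), had PBS means of 371.2 ± 90.7, 413.3 ± 27.8 and 359.8 ± 41.8 CPM in the 3 weeks and MCT means of 412.1 ± 53.7, 327.2 ± 28.8 and 196.4 ± 24.9.

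The neighbours of Xpnpep2 on the X chromosome were examined last and were chosen by position after values were seen. Within 300000 bases on either side lie 8 genes that were tested. Apln, which encodes the endothelial peptide apelin, ends its span 74405 bases before Xpnpep2 and runs on the minus strand. Its level was 131.7 ± 32.2 in PBS and 227.4 ± 21.6 CPM in MCT lungs in Week 1, all MCT rats above all PBS rats (log2 fold change 0.79, adjusted p = 0.497), 132.6 ± 4.8 and 165.2 ± 45.8 in Week 2 and 129.4 ± 18.5 and 147.7 ± 15.5 in Week 3 (0.31 and 0.18, adjusted p = 0.217 and 0.339). It thus had no lower level in Week 3, where Xpnpep2 was 3.0-fold lower.

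The nearest gene, ENSRNOG00000004409, begins 9650 bases after Xpnpep2 on the same strand and had log2 fold changes of 0.16, 0.040 and 0.080 (adjusted p = 1, 0.869 and 0.774). The next, ENSRNOG00000004581, at 35127 bases and on the minus strand, is the gene without a symbol named above, with 0.14, -0.22 and -0.58 (adjusted p = 0.00217 in Week 3, just inside the fold threshold). Of the 8, Smarca1 was called lower in Week 3 (-1.36, adjusted p = 0.00302) and Bcorl1 in Week 2 (-0.60, adjusted p = 0.00603). The other 6 were called in no week. Over all genes tested, 3.43% were called lower in Week 2 and 11% in Week 3. These calls among 8 genes are therefore not read as a trait of the region.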

How the data were processed

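Lung RNA of 24 rats was sequenced as poly-A libraries made with a kit that keeps the strand. Per the methods and the labels, the authors aligned the reads with HISAT2 2.0.5 to the Rnor_6.0 genome and counted them per gene with featureCounts 2.0.3, and their deposited table holds raw counts for 32883 genes beside each gene's coordinates and length. Strandedness, the rule for multi-mapped reads and the annotation release are not given in the sources used here. The authors used DESeq2 1.32.0.

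Each week was fitted by edgeR 4.0.16 (R 4.3.3) on its 8 libraries, with filterByExpr, TMM scaling, the quasi-likelihood test and Benjamini-Hochberg adjustment, and a gene was called at a fold over 1.5 with adjusted p under 0.05. Changes between weeks came from a model of 24 libraries with 6 group means (adjusted p under 0.05). Log2 CPM used a prior count of 2. The fit was tested on simulated data with 200 changed genes. The gene and the gene lists were chosen with earlier results of these data known. Named were all called members of the lists that are not cell markers, all kinin-cleaving peptidases, up to 3 markers per list by level, and the 10 genes with the highest r, and others are said to be chosen after their values were seen. Symbols came from the study's supplementary gene table (3275 identifiers, a shortened copy), and 0 of 23 lists had a symbol for 80% of members. None of the Ensembl identifiers matched the RefSeq table, and the window of 250 bases was found by the Entrez identifier listed with the symbol.

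The labels do not say whether rats of 1 group share a litter or cage, and p-values set the group difference against the spread between these rats. Of 36 pairs of libraries within a group, no pair came closer than a chi-square of 23.65 per degree of freedom, so none was a repeat. Alternatives were RLE scaling, total counts, no filter, a minimum of 10 counts throughout, limma-voom (limma 3.58.1) with quality weights, DESeq2 1.42.0, a block for the replicate number, 1 fit of the 24 libraries, and leaving out each library. Leaving out PBS replicates 1 and 3 of Week 1 together was chosen after seeing the data. Pressures, histology, protein data and patient data were not analysed here.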

Additional observations from a re-analysis of the deposited data

Results flagged for a closer look

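The MCT effect on Xpnpep2 had opposite signs in Week 1 and the later weeks, with every MCT rat above every PBS rat in Week 1 and below in Weeks 2 and 3. The log2 effect differed by -0.953 between Weeks 1 and 2 and by -1.98 between Weeks 1 and 3. The gene was chosen for this, and the difference was not tested.

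MCT replicate 2 of Week 1 lay far from the other 3 rats of its group in Xpnpep2 (265.3 CPM) and in Ace (568 CPM). Other single rats that lay far from their group were PBS replicate 2 of Week 3 in Kng2 (13.4 CPM), PBS replicate 1 of Week 1 in Cpa3 (32.0 CPM), PBS replicate 3 and 4 of Week 3 in Dpp7 (26.0 CPM) and Apln (101.9 CPM) respectively, and MCT replicate 3 of Week 3 in Podxl (233.5 CPM). These are 7 of 72 groups of 4 examined with Dixon's criterion, and chance flags about 1 in 20.

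The MCT effect differed between Weeks 1 and 3 by the edgeR test of the difference in Dpp4 (-1.15, adjusted p = 0.0322), Enpep (-1.06, adjusted p = 0.0393), Cpa3 (4.54, adjusted p = 0.00258), Dpp7 (1.84, adjusted p = 0.00801), Podxl (-1.02, adjusted p = 0.00944) and Mal (-1.71, adjusted p = 0.00485). The calls of Dpp4, Enpep and Cpa3 were lost in 8, 14 and 1 of 24 other settings. Podxl and Mal were picked for likeness to Xpnpep2 on these libraries, so their tests are no independent evidence.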

How the results depend on the processing

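Xpnpep2 kept its sign in every setting. Its groups were fully apart in each week, so leaving out 1 library could hardly have changed that sign. Leaving out each library in turn gave log2 fold changes of 0.277 to 0.449 in Week 1, -0.618 to -0.496 in Week 2 and -1.61 to -1.50 in Week 3, and the other settings 0.311 to 0.486, -0.551 to -0.538 and -1.59 to -1.51. With the replicate number as a block the values were 0.404, -0.549 and -1.59. Whether equal numbers pair the rats is not known, and low correlations cannot exclude it. Of 12 same-numbered pairs, 2 had deviations correlated above 0.1 (range -0.27 to 0.463). These were replicates 1 (0.463) and 3 (0.333) of Week 1, the numbers of the PBS libraries that stood apart. The block ended the calls of the change from Week 1 to Week 3 in Enpep (adjusted p = 0.0576), Cav1 (0.0629), Cavin2 (0.0641) and Ehd4 (0.0752), and the Week 2 call of Gpc3 (0.0695). The changes between weeks ranged from -1.03 to -0.855, -1.08 to -0.956 and -2.04 to -1.87 with 1 library left out. Among the 14 kinin, angiotensin and peptidase genes, the number lower in Week 1 went from 0 to 1 with DESeq2, 2 in a fit of all 24 libraries and 1 without PBS replicates 1 and 3 of Week 1, and in that fit the Week 2 numbers went from 4 to 2 higher and 6 to 4 lower. Among the 25 caveola and pan-endothelial genes, the number lower in Week 1 went from 0 to 1 with at least 10 counts in every library, 3 with DESeq2, 2 with limma-voom, 4 in the fit of all 24 and 3 without that pair, and lay between 0 and 2 with 1 library left out. Over all genes, Week 1 calls (14) went to 0 with the block, to 263 with DESeq2 and to 553 in the fit of all 24 libraries, where Week 2 calls fell from 1519 to 400 and Week 3 calls from 3566 to 1829. The change from Week 1 to Week 3 was called higher in 1030 and lower in 734 genes by DESeq2, and in 80 and 175 with the block. That from Week 2 to Week 3 was called in 12 genes by the main fit, 228 by DESeq2, 3681 by limma-voom and 0 with the block. Counting error was 1.12% to 2.4% of the Xpnpep2 count.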
